A study of Mus musculus with 8 samples.

Results

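The NRF2 antioxidant response was followed through 10 of its genes: Nfe2l2, Keap1, Nqo1, Gclc, Gclm, Txnrd1, Srxn1, Prdx1, Txn1 and Gsr. They were set by name, with earlier results of these data known. All 10 were found among the 15853 genes listed and had an adjusted p-value. The comparison was between 2 groups of mouse bone marrow-derived macrophages, grown for 7 days with conditioned medium of L929 fibroblasts, a source of the growth factor M-CSF. All cells then received palmitate (C16:0) at 250 uM with 25 mM glucose and 10 nM insulin for 24 h, so no untreated cells were compared. The 4 control libraries came from cells of genotype Mirc11 fl/fl Mirc22 fl/fl Lyz2 +/+, which carry loxP-flanked clusters of miR-24, miR-27 and miR-23 without Cre. The 4 knockout libraries came from cells of genotype Mirc11 fl/fl Mirc22 fl/fl Lyz2 Cre/Cre, in which both Lyz2 copies drive Cre in myeloid cells. The knockout therefore also differs from the control in Cre itself and in Lyz2. The series names the libraries of a genotype biological replicates. The labels give no age and do not say whether each came from its own mouse, so p-values reflect only the spread between these samples, in part perhaps technical.

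Every fold change here is knockout over control. The deposited comparison does not name its numerator, and the direction was read from Lyz2, which carries the Cre insertion in the knockout and stood at a log2 value of -9.10 ± 0.42 in the authors' deposited table, where ± is throughout the authors' standard error (SE) of a log2 fold change. Lyz2 is thus no independent check of the labels. Values of single libraries were not used because their column names match no sample label, so the spread between libraries enters through that SE alone, and the depth of each library is unknown here. Of 15 macrophage markers all were measured, with 1 called higher (Adgre1) and 7 called lower, beside 11.3% and 11.7% of all genes tested. Of 20 stromal markers 19 were measured, with 18 called higher and 0 lower, and their summed mean normalized count was 2565 in control and 9354 in knockout. Of the neutrophil, T and B cell and dendritic cell markers, 2, 3 and 2 had an adjusted p-value, and 0 were called by DESeq2 (0 at an unadjusted p under 0.05). In bulk RNA, more cells of one type and more RNA per cell cannot be told apart.

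NRF2, the product of Nfe2l2, is a transcription factor that binds antioxidant response elements together with small MAF proteins. KEAP1 holds it in the cytoplasm and hands it to a CUL3 ubiquitin ligase for destruction, until electrophiles or oxidants modify cysteines of KEAP1 and NRF2 accumulates. Its targets supply glutathione, thioredoxin and NADPH, which macrophages use to limit damage by the oxidants they produce. Much of this control acts on the NRF2 protein, which RNA-seq does not measure.

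Among the 10 genes, 3 were higher in the knockout at an adjusted p under 0.05 and 0 were lower: Nqo1, Nfe2l2 and Gsr. Over all 14619 genes with an adjusted p-value, 11.3% were called higher and 11.7% lower, or 23% in either direction. The 3 calls are 30% of the 10 genes, a share that 1 gene more or less moves by 10 percentage points. The median log2 fold change of the 10 was 0.18, against -0.0040 over all genes tested. Without adjustment, 6 of the 10 had a p under 0.05, 5 of them higher, where 34.8% of all genes tested had one. Fold changes ran from -0.19 for Keap1 to 0.90 for Nqo1, and apart from Nqo1 the rises were at most 1.28-fold.

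**Figure D1:**
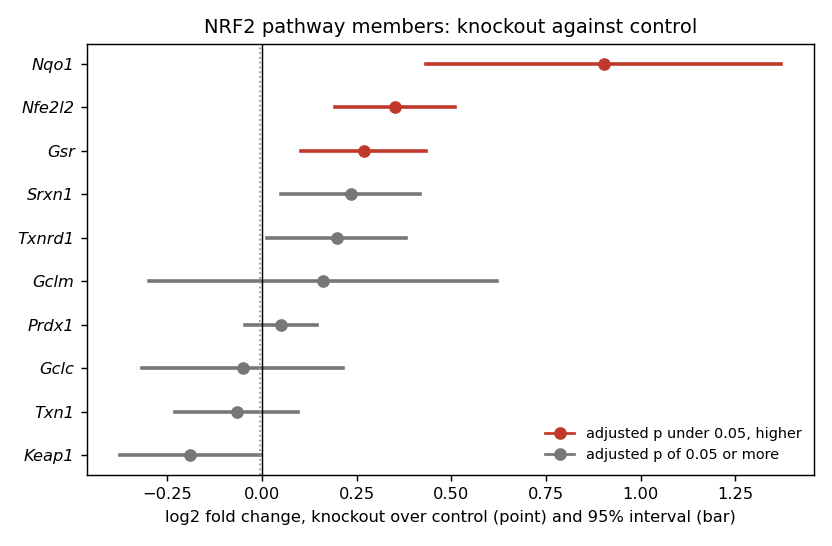
Log2 fold change of each of the 10 genes, knockout over control (x axis), with its 95% interval computed from the authors' standard error. Red marks the 3 genes called higher, the solid line is no difference and the dotted line the median of all genes tested; 6 of the 10 intervals exclude 0.

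Nfe2l2, the gene of the transcription factor itself, was higher in the knockout. It lies on chromosome 2, from 75675513 to 75704641 on the minus strand (GRCm38, the assembly of mm10). The group means derived from the deposited values were 15710 normalized counts in control and 20039 in knockout, a 1.28-fold difference with a 95% interval of 1.14 to 1.42. In the authors' deposited table the log2 fold change was 0.35 ± 0.08 (adjusted p = 0.000233 by DESeq2). Its SE was 1.10 times the median of the 201 genes nearest to it in abundance, so its libraries were about as variable as those of other genes of that level. A larger absolute fold change was seen in 28.9% of all genes tested.

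Keap1, the inhibitor of NRF2, had the lowest fold change of the 10 and was not called. The gene lies on chromosome 9, from 21229730 to 21239361 on the minus strand. Its derived means were 6232 normalized counts in control and 5468 in knockout. The authors' deposited table gave a log2 fold change of -0.19 ± 0.09 (adjusted p = 0.136 by DESeq2), with a 95% interval from -0.37 to -0.0032. The interval just excludes 0 before adjustment for all genes, and the adjusted value does not pass. The span of an antisense gene, Gm16754, overlaps that of Keap1. Whether their exons overlap was not examined, and no source used here says if counting used the strand. It is thus unknown if they share reads.

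The Mirc11 and Mirc22 clusters give rise to miR-23, miR-27 and miR-24, and the sequences of these miRNAs and of their possible sites are shown because these clusters are the ones targeted in the knockout. The mature sequences below are from RefSeq (GRCm38.p6), with the seed, bases 2 to 8 from the 5′ end, in capitals. The source held no mature miR-23b-3p sequence, so none is shown. Mature miRNAs were not measured by these poly(A) libraries.
mmu-miR-23a-3p: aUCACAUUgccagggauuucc
mmu-miR-27a-3p: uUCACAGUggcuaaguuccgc
mmu-miR-27b-3p: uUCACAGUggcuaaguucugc
mmu-miR-24-3p: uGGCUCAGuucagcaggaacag

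The seed matches AATGTGA (miR-23), ACTGTGA (miR-27) and CTGAGCC (miR-24), or their last 6 letters followed by A, were searched in each gene's longest annotated 3′ UTR. Of the 10 genes, 4 held at least 1 match: Nfe2l2, Keap1, Gclm and Txnrd1. Over 13087 measured genes with an annotated 3′ UTR the share was 53.4%, and the median UTR was 1166 nucleotides long. Neither Nqo1 nor Gsr held a match, so among the 3 genes called higher only Nfe2l2 did. The sites follow with 8 flanking bases on each side, on the transcript strand, the match in capitals.
Nfe2l2, miR-27: aacttcctACTGTGAtgtgaaat
Nfe2l2, miR-23: ctactgtgATGTGAAatgcagaa
Keap1, miR-24: tctgggctCTGAGCCctgaacag
Txnrd1, miR-23: tggaaaaaAATGTGAAccaataaa
Txnrd1, miR-23: acaggtggATGTGAAggattttt
Gclm, miR-23: ttagaattATGTGAAaacaactg
Gclm, miR-27: cagattttCTGTGAAaaccataa
Gclm, miR-24: gacgttagTGAGCCAgagcaagc

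The pair in Nfe2l2 lies in exon 5 of 5, at 75675895 to 75675901 for miR-27 and 75675889 to 75675895 for miR-23 on chromosome 2, so that the matches share 1 base. They start at nucleotides 60 and 66 of a 3′ UTR of 448 nucleotides, shorter than that of 77.1% of measured genes. The Keap1 match lies at 21230220 to 21230226 on chromosome 9, in exon 6 of 6. The first Txnrd1 site, at 82897682 to 82897689 on chromosome 10 in exon 14 of 14, was the only 8-nucleotide match among the 10 genes, a kind held by 19.4% of measured genes for any of the 3 miRNAs. The Gclm sites lie in exon 7 of 7, at 122267599 to 122267605, 122269275 to 122269281 and 122270611 to 122270617 on chromosome 3, in a UTR of 4335 nucleotides. Only 6.69% of measured genes had a longer one. A match describes the sequence and does not show binding.

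Nqo1, a quinone reductase often used as a readout of NRF2 activity, had the largest difference of the 10. It lies on chromosome 8, from 107388225 to 107403206 on the minus strand. Its derived means were 70.0 normalized counts in control and 131 in knockout, a 1.87-fold difference with a 95% interval of 1.35 to 2.59. In the authors' deposited table the log2 value was 0.90 ± 0.24 (adjusted p = 0.00173 by DESeq2). Nqo1 was also by far the least abundant of the 10. Per kilobase of its longest coding transcript its mean was 64.7 normalized counts, where Gclc, the next lowest, had 862. Stromal markers, which are genes of low level in these cells as well, had a median log2 fold change of 1.86 in the same comparison, and their part in the rise of Nqo1 was not tested.

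Glutathione is made in steps whose first is catalysed by glutamate-cysteine ligase, with Gclc its catalytic and Gclm its modifier subunit. Neither gene was called. Gclc, on chromosome 9 from 77754535 to 77794485, had derived means of 3001 normalized counts in control and 2897 in knockout. In the authors' deposited table the log2 value was -0.05 ± 0.14 (adjusted p = 0.832 by DESeq2), which became 0.0122 when fold changes were centred on the summed group means and 0.0018 when Lyz2 was left out of those sums. The 95% interval, -0.32 to 0.22, spans ratios of knockout to control from 0.803 to 1.16.

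Gclm, on chromosome 3 from 122245557 to 122270732, had derived means of 6352 normalized counts in control and 7104 in knockout. The authors' deposited table gave 0.16 ± 0.23 (adjusted p = 0.668 by DESeq2). This SE was 3.10 times the median of the genes nearest in abundance, a ratio higher than that of 97.7% of genes tested, and that of Gclc was 1.77 times. By this measure both ligase subunits varied more between libraries than genes of like level, and for Gclm a difference had to reach 1.51-fold to be called. The pseudogene Gm6061, on the same strand, and Gm17494, on the opposite strand, overlap Gclm.

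Gsr, the glutathione reductase that returns oxidised glutathione to its reduced form at the cost of NADPH, was higher in the knockout. It lies on chromosome 8, from 33652523 to 33698163. Its derived means were 3466 normalized counts in control and 4174 in knockout, a 1.20-fold difference with a 95% interval of 1.07 to 1.35. The log2 difference listed in the authors' deposited table was 0.27 ± 0.08 (adjusted p = 0.00967 by DESeq2). Of the 3 glutathione enzymes among the 10 genes only the reductase was thus called, and its difference from the ligase subunits was not tested.

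None of the 4 genes of the thioredoxin branch was called, with log2 fold changes from -0.07 for Txn1 to 0.23 for Srxn1. Srxn1, sulfiredoxin, which repairs overoxidised peroxiredoxins, lies on chromosome 2 from 152105516 to 152111376. Its derived means were 10993 normalized counts in control and 12930 in knockout. The authors' deposited table gave a log2 fold change of 0.23 ± 0.09 (adjusted p = 0.0523 by DESeq2), just short of the threshold. Srxn1 is the member whose call depended most on the procedure. It passed with a minimum mean of 50 (adjusted p = 0.0471), with centring on the median of all genes (adjusted p = 0.0482) and with centring on the summed group means (adjusted p = 0.0106).

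Txnrd1, the cytosolic thioredoxin reductase, lies on chromosome 10 from 82833951 to 82897712. Derived means were 10155 normalized counts in control and 11641 in knockout. Its log2 fold change was 0.20 ± 0.09 (adjusted p = 0.115 by DESeq2) in the authors' deposited table, and with centring on the summed group means it passed (adjusted p = 0.0309). The coding gene Eid3 overlaps Txnrd1 on the same strand, at a mean of 21.7 normalized counts.

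Txn1, thioredoxin itself, and Prdx1, an abundant peroxiredoxin, were close to no difference. Txn1, on chromosome 4 from 57943373 to 57956411, had derived means of 7998 normalized counts in control and 7637 in knockout. The authors' deposited table gave it a log2 fold change of -0.07 ± 0.08 (adjusted p = 0.607 by DESeq2). Prdx1, on chromosome 4 from 116685544 to 116700822, had derived means of 89516 and 92686 normalized counts in control and knockout. It was at 0.05 ± 0.05 (adjusted p = 0.491 by DESeq2) in the authors' deposited table. The interval of Prdx1, -0.05 to 0.15, is the narrowest of the 10. A rise in the knockout would be at most 1.11-fold at its upper bound. Both values carry an uncertainty of counting, since stretches of at least 200 nucleotides at 95% identity or more occur in 2 other annotated genes for Prdx1 and in the pseudogene Txn-ps1 for Txn1.

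**Figure D2:**
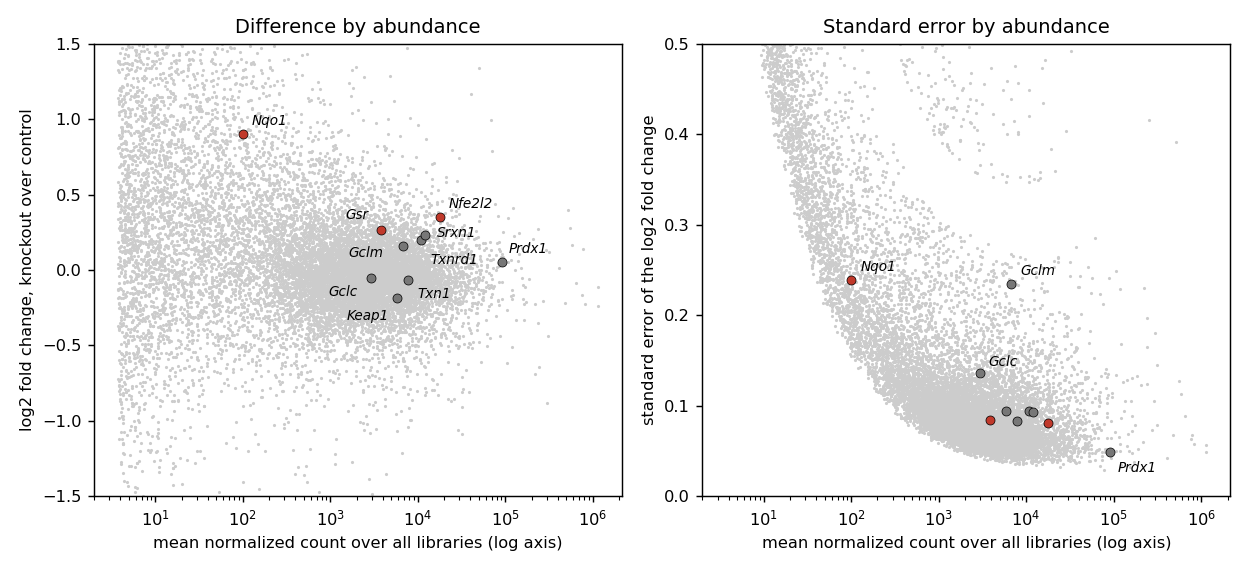
Log2 fold change (left) and its standard error (right) against the mean normalized count over all libraries on a log axis, for all genes tested (grey) and the 10 genes (red if called higher, dark grey otherwise). Nqo1 lies apart at a mean of 101 and Gclm stands above most other genes of its level in standard error; 507 genes lie outside the drawn range on the left and 2103 on the right.

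Levels of the genes spanned a wide range. Per kilobase of the longest coding transcript, Prdx1 had a mean of 39713 normalized counts, followed by Txn1 at 7438, Nfe2l2 at 7222, Srxn1 at 4254 and Txnrd1 at 3009. Keap1 followed at 1619, Gsr at 1429, Gclm at 1204, Gclc at 862 and Nqo1 at 64.7. Whether neighbours in this order differ beyond the spread of single libraries could not be assessed. Of the 9 genes with a mean of at least 1000, 2 were called higher and 0 lower, with a median log2 fold change of 0.16. Over all tested genes of that level, 8.14% were called higher and 17.6% lower, with a median of -0.05. This limit was chosen after the values were seen.

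Promoters, from 250 bases before to 50 after the annotated start, were available for 8 of the 10 genes, all but Gclc and Gsr (RefSeq, GRCm38.p6). They were searched on both strands for TGACNNNGC, the core of the antioxidant response element, to show where NRF2 could bind near these starts. A core was found for 5 genes: Nfe2l2, Gclm, Prdx1, Srxn1 and, at 1 of its 3 starts, Txnrd1. Counted the same way, by gene, 14.0% of all genes in the promoter table held one, and 16.7% of those in the deposited comparison. The cores are shown with up to 10 flanking bases, on the strand of the gene, the match in capitals. In all but Nfe2l2 the core reads on the opposite strand.
Nfe2l2, chr2:75704885-75704913: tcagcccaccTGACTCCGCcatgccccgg
Gclm, chr3:122245413-122245441: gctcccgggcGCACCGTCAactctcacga
Prdx1, chr4:116685456-116685484: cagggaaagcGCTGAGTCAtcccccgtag
Srxn1, chr2:152105542-152105570: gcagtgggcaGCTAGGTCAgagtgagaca
Txnrd1, chr10:82859104-82859132: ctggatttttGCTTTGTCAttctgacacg

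The match begins 240 bases before the start in Nfe2l2, 134 in Gclm, 133 in Prdx1 and 92 in Txnrd1, and in Srxn1 it begins 28 bases past the start. Of the genes called higher, Nfe2l2 has a core in this window, Nqo1 has none and Gsr was not searched. The other 4 genes with a core, Gclm, Prdx1, Srxn1 and Txnrd1, were not called. Sequence further from the start was not examined.

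Few other genes of NRF2 control were called. Of 20 measured, 1 was higher and 1 lower, 10% in all against 23% of all genes tested, and with centring on the summed group means 3 were higher and 1 lower (2 and 1 with Lyz2 left out of the sums). Btrc, a subunit of another ubiquitin ligase for NRF2, was higher at 0.21 ± 0.07 and Mafk, a small MAF partner, was lower at -0.42 ± 0.12 in the authors' deposited table. Cul3, of the ligase that KEAP1 serves, was at 0.05 ± 0.04 (adjusted p = 0.429 by DESeq2) in the authors' deposited table and passed as higher with that centring (adjusted p = 0.0412), but not with Lyz2 left out of the sums (adjusted p = 0.0689). Bach1, a repressor at the same elements, was at 0.10 ± 0.08 (adjusted p = 0.381 by DESeq2) in the authors' deposited table. Sqstm1, the autophagy receptor p62 that can bind KEAP1, was at -0.29 ± 0.13 (adjusted p = 0.0921 by DESeq2) in the authors' deposited table.

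Further reported NRF2 targets split by gene. Of 34 measured, 10 were called higher and 2 lower, beside 11.3% and 11.7% of all genes tested, and the median log2 fold change was 0.12. The NADPH-producing enzymes G6pdx (0.48 ± 0.06) and Me1 (0.79 ± 0.11) and the glutathione S-transferases Gsta3 (2.36 ± 0.18) and Gstp1 (1.40 ± 0.18) had the smallest adjusted p among those higher in the authors' deposited table. The 2 lower were Slc7a11, the cystine importer that feeds glutathione synthesis (-0.68 ± 0.23), and Ftl1, the ferritin light chain (-0.17 ± 0.06), in the authors' deposited table. Hmox1, haem oxygenase 1 and a widely used NRF2 target, was not called, at 0.22 ± 0.13 (adjusted p = 0.22 by DESeq2) in the authors' deposited table. The call of Ftl1 was lost with centring on the summed group means (adjusted p = 0.251). Ftl1 and Hmox1 were chosen after their values were seen. Gsta3, Gstp1 and Ftl1 have close paralogs or pseudogenes, so their counts are uncertain. Of the 10 measured targets with a mean under 1000, 6 were called higher, where 14.8% of all genes tested were. Of the 24 with a mean of at least 1000, 4 were called higher, beside 8.14% of all genes tested at that level. Stromal markers (18 of 19 called higher, median 1.86) moved the same way, and their part in these rises was not tested.

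Among other thioredoxin and peroxiredoxin genes, 5 of 19 were called higher and 3 lower, beside 11.3% and 11.7% of all genes tested, with a median log2 fold change of -0.03, or 0.03 with centring on the summed group means. Sesn2, a sestrin, was higher at 0.90 ± 0.07, Msrb3, a methionine sulfoxide reductase, at 1.60 ± 0.26 and Prdx3, the mitochondrial peroxiredoxin, at 0.13 ± 0.04 in the authors' deposited table. Msra (-0.30 ± 0.09), Prdx5 (-0.39 ± 0.13) and the mitochondrial reductase Txnrd2 (-0.17 ± 0.06) were the 3 lower in the authors' deposited table, of which Prdx5 and Txnrd2 were chosen after their values were seen. Those 2 lost their calls with the same centring (adjusted p = 0.062 and 0.186). At a mean of at least 50, 3 genes of this list were called higher and 3 lower. Msrb3, with a mean of 44.2, is left out by that filter. Of the 4 genes of this list with a mean under 1000, 2 were called higher, where 14.8% of all genes tested were. Stromal markers were higher in the same comparison (18 of 19 called), and their part in these rises was not tested.

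The glutathione system outside the 10 genes had 4 of 21 members called higher and 1 lower. The lower gene, Slc7a11, is also counted among the further NRF2 targets above. These 5 calls are 23.8% of the list, near the 23% of all genes tested. The list had a median log2 fold change of -0.01, or 0.05 with centring on the summed group means. Gpx3, the secreted glutathione peroxidase, was higher at 1.20 ± 0.19, Oplah, which recycles 5-oxoproline to glutamate, at 0.64 ± 0.12 and Ggt5, a gamma-glutamyltransferase, at 1.07 ± 0.25 in the authors' deposited table. The 4 that were higher were among the 11 members of this list with a mean under 1000. Of the 10 members with a mean of at least 1000, none was called. Under that level 14.8% of all genes tested were called higher. At or above it 8.14% were called higher and 17.6% lower. Gss, the second enzyme of glutathione synthesis, was at -0.01 ± 0.08 in the authors' deposited table, or 0.05 with that centring, and it too was chosen with its value in view. Stromal markers were higher in the same comparison, and their part in the rise of the 4 genes called higher was not tested.

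Enzymes that make and remove superoxide and peroxide were called in both directions. Of 10 genes, 4 were called lower, among them subunits of the phagocyte NADPH oxidase, and 2 higher, beside 11.7% and 11.3% of all genes tested. The 4 lower genes were among the 9 with a mean of at least 1000, where 17.6% of all genes tested were called lower. Cybb, its membrane catalytic subunit, was at -0.45 ± 0.10, Ncf1 at -0.29 ± 0.08 and Ncf4, chosen after its value was seen, at -0.38 ± 0.12 in the authors' deposited table. With centring on the summed group means these 3 stayed called (adjusted p = 0.00133, 0.0333 and 0.0360). The list also holds Cyba, at -0.22 ± 0.09, and Rac2, at -0.00025 ± 0.07, neither called in the authors' deposited table. Both were chosen after their values were seen. At a mean of at least 50, 5 genes of this list were called lower and 1 higher. Cat, catalase, was higher at 0.45 ± 0.09, and so was the extracellular dismutase Sod3 at 1.44 ± 0.50, chosen after its value was seen, in the authors' deposited table. Sod3, with a mean of 32.6, is left out by the filter at 50. Stromal markers were higher in the same comparison, and their part in the rise of Sod3 was not tested. Cat is also counted among the further NRF2 targets above. In the same comparison 7 of 15 macrophage markers were called lower (6 with that centring), counting Lyz2 itself, which carries the Cre insertion. The share called lower was 11.7% over all genes tested and 17.6% at a mean of at least 1000, where these markers all lie. Csf1r, at -0.33 ± 0.09, and Spi1, at -0.34 ± 0.10, were lower in the authors' deposited table. Adgre1, the 1 marker called higher, was at 0.25 ± 0.07 there, and 7 markers were not called. Whether the oxidase genes moved with the lower markers was not tested.

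**Figure D3:**
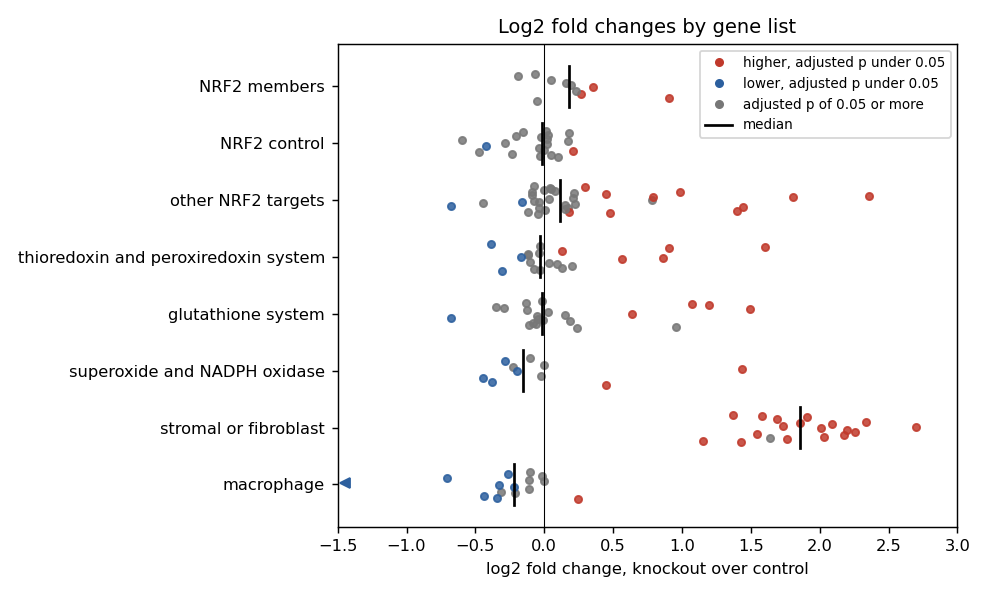
Log2 fold change of each measured gene with an adjusted p-value (points) by gene list, red if called higher, blue if called lower and grey otherwise, with the median of each list as a black bar. The 10 NRF2 genes have a median of 0.18, the stromal list one of 1.86, and the arrowhead at the left edge is Lyz2 at -9.10.

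The number of the 10 genes called changed with the scaling. Centring by the summed group means subtracted a log2 offset of -0.06, which raised every fold change. It brought the count called higher from 3 to 5 by adding Srxn1 and Txnrd1, and left 0 lower. The same centring changed the split over all genes from 1651 higher and 1712 lower to 2339 higher and 960 lower. Nqo1, Nfe2l2 and Gsr were called higher under each filter and scaling tried, with adjusted p up to 0.00187, 0.000253 and 0.0105. Gsr, alone of these, was above the stricter limit of 0.01 with no filter on the mean.

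**Figure D4:**
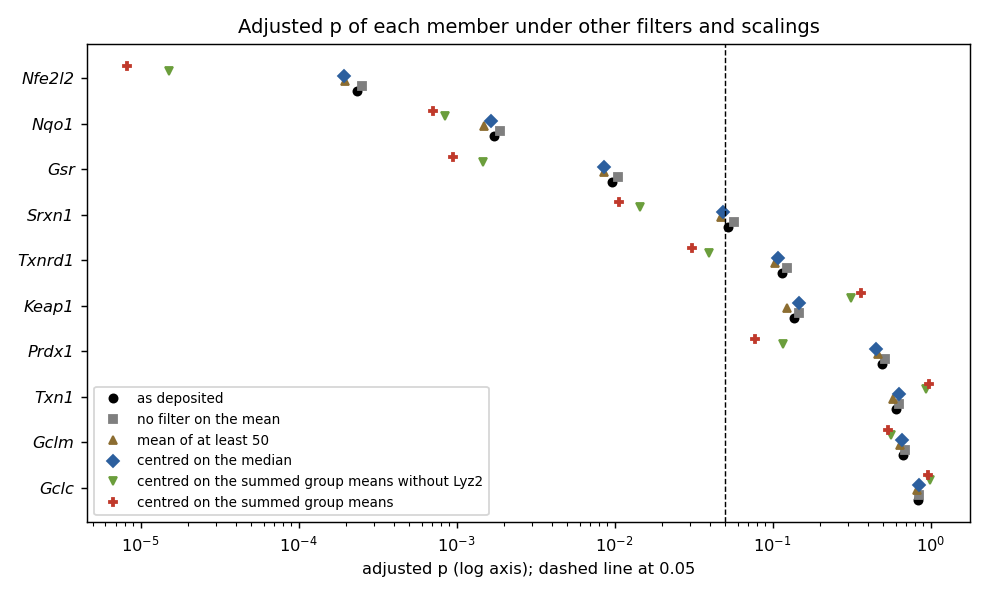
Adjusted p of each of the 10 genes (x axis, log scale) under the deposited procedure, other filters and other scalings (symbols); the dashed line is 0.05. Nfe2l2, Nqo1 and Gsr lie left of the line under every setting drawn, Srxn1 lies on both sides, and Txnrd1 crosses only with the centring on summed means.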

How the data were processed

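Polyadenylated RNA of 8 libraries (4 control, 4 knockout) was sequenced. The tools named, per the submitters' processing notes, are FastQC, cutadapt, Salmon and DESeq2, and the build is mm10. Their versions, settings and roles were not given in the sources used here. Per the file headers, the authors' table gives each gene a signal (mean normalized count over all libraries), a log2 fold change with its SE in log2 units, a score (the Wald statistic, equal to fold change over SE to within 1.1e-07) and the p-value, raw and adjusted. The 8 columns of values per library match no sample label and were not used, so no limma fit and no refit without a library was made.

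Of 15853 genes, 14619 have an adjusted p-value, and a gene was called at one under 0.05, two-sided. Group means were solved from the mean normalized count and the fold change, taking 4 libraries a group, and 95% intervals are normal ones from the authors' SE. For alternatives, p-values were recomputed from shifted fold changes and the deposited SE, with Benjamini-Hochberg adjustment. Positions, lengths and 3′ UTRs came from GENCODE annotation of GRCm38. Computation used Python 3.11.15 with scipy 1.17.1, was tested on simulated data, and BLAST found near-identical stretches. All 10 members are named. From each of the 5 pathway lists, up to 4 called genes with the smallest adjusted p are named, with Cul3, Bach1 and Sqstm1, except 1 gene that is not reported here. Members and lists were chosen with earlier results of these data known.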

Additional observations from a re-analysis of the deposited data

How the results depend on the processing

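No paired analysis was possible because the single-library columns match no label, and for that reason no library was left out in turn. Centring on the summed group means gave 5 NRF2 genes called higher, and 5 again without Lyz2 in the sums. It gave 960 genes lower over the whole table (1046 without Lyz2) and 6 lower pathway genes in place of 10. Under these centrings Txnrd1 passed (adjusted p = 0.0309 and 0.0395 without Lyz2), as did Srxn1 (0.0106 and 0.0145), while Gclc turned positive far from any call (0.964 and 0.994). Srxn1 also passed at a mean of at least 50 (0.0471) and with centring on the median (0.0482). At an adjusted p under 0.01, 1047 genes were higher and 1009 lower, and of the pathway genes 13 higher in place of 21 and 6 lower. With 8-nucleotide matches alone, 1 of 4 genes kept a seed match, and with the core followed by A, 1 of 5 kept a core, as both are stricter by construction. The 3 other settings for pathway genes were added after seeing the data. The SE limits what could be called: a rise had to reach 1.09-fold for Prdx1, 1.18-fold for Srxn1 and 1.51-fold for Gclm.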

Other observations

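The calls among NRF2 pathway genes outside the 10 members divided by abundance, at a limit chosen after the values were seen. Of the 27 genes with a mean under 1000 normalized counts, 13 were called higher and 1 lower, and of the 74 with a mean of at least 1000, 8 were higher and 9 lower. Over all genes tested, 14.8% were higher and 5.14% lower under that limit, and 8.14% were higher and 17.6% lower above it. Low genes higher in the knockout included the efflux pump gene Abcc2 (1.80 ± 0.33) and Ugt1a6a, a glucuronosyltransferase gene (0.99 ± 0.21), in the authors' deposited table. Ugt1a6a shares sequence with other genes of its locus, so its value is uncertain. The stromal markers, with means from 6.95 to 1012, lie in a like range and had a median log2 fold change of 1.86. Their part in these calls was not tested.

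Of the pentose phosphate enzymes, which NRF2 is known to induce, 1 of 4 was called, beside 23% of all genes tested. G6pdx was called higher at 0.48 ± 0.06, whereas Pgd was at -0.04 ± 0.09 (0.03 with centring on the summed group means), Tkt at 0.04 ± 0.05 and Taldo1 at 0.04 ± 0.18, none of them called, in the authors' deposited table. Pgd, Tkt and Taldo1 were chosen after their values were seen. Whether G6pdx differs from them was not tested.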
